A study of Homo sapiens with 16 samples.

Results

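The SWI/SNF chromatin remodelling complex was followed at the level of RNA through 10 of its subunit genes, taken by name from the table of counts: SMARCB1, SMARCA2, SMARCA4, ARID1A, ARID1B, ARID2, PBRM1, SMARCC1, SMARCC2 and SMARCD3. All 10 were rows of the deposited table of 20114 genes, and all 10 passed the filter on low counts that left 14035 genes. SWI/SNF complexes use ATP to move or evict nucleosomes and so open DNA at promoters and enhancers. Each complex holds a single ATPase, SMARCA4 or its paralogue SMARCA2. In the canonical BAF and PBAF forms the core includes SMARCB1, a SMARCC1 and SMARCC2 scaffold and a SMARCD subunit. ARID1A or ARID1B marks the canonical BAF form, and ARID2 with PBRM1 marks the PBAF form. Rhabdoid tumours are known for the loss of SMARCB1 protein, and more rarely of SMARCA4, whereas in breast cancer mutations of ARID1A are among the better known lesions of the complex.

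RNA sequencing of polyadenylated RNA covered 16 libraries of 2 human cell lines, TT642, whose source label is rhabdoid tumour, and Hs578, whose source label is breast cancer. The series design calls both lines triple-negative breast cancer. Each line was grown as parental cells with no hairpin and as 3 derived lines, numbered 1 to 3, that carry an inducible short hairpin RNA (shRNA) against PRRX1, a homeobox transcription factor of mesenchymal cells. Every culture was sequenced after doxycycline (DOX) at 3 µg/ml, which switches the hairpin on, and without it. TT642 and Hs578 thus each gave 3 hairpin libraries with DOX, 1 parental library with DOX, 3 hairpin libraries without DOX and 1 parental library without DOX. The sources used here do not give the treatment time, the hairpin sequences, the promoter that drives them, whether the numbers stand for different hairpins, or whether the derived lines are clones or pools. The labels do not say that cultures were independent, so p-values measure the spread between these libraries.

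Totals were 15265227 to 24672906 counts in TT642 libraries and 13461527 to 19139654 in Hs578 libraries. PRRX1 was lower with DOX in every hairpin pair, at 184 to 513 CPM with DOX against 1213 to 1409 CPM without it in TT642, and at 37.1 to 72.8 CPM with DOX against 227 to 291 CPM without it in Hs578. CPM values are counts scaled to library size after TMM normalisation, a correction for library composition. The rhabdoid immunophenotype genes VIM, KRT8, KRT18 and MUC1 summed to 9971 to 11074 CPM in TT642 and 4441 to 6128 CPM in Hs578, and the sum is carried by VIM (9915 to 11007 CPM in TT642 and 4081 to 5874 CPM in Hs578). In uninduced hairpin lines VIM (1.29) and MUC1 (2.46) were higher in TT642 by edgeR log2 fold change, and the keratins KRT8 (-5.93) and KRT18 (-10.31) were lower, with KRT8 at 0.283 to 1.54 CPM in all TT642 libraries. The 5 basal breast markers summed to 3.95 to 12.0 CPM in TT642, where KRT5 was at 0, and to 172 to 318 CPM in Hs578. The 10 epithelial markers stayed at 5.84 to 26.1 CPM in TT642 and 2.66 to 6.61 CPM in Hs578, against 10792 to 12363 and 20775 to 41769 CPM for the 10 mesenchymal markers.

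The first comparison asked how the subunits of the rhabdoid-labelled line differ from those of Hs578 when no hairpin is induced. SMARCA2 RNA was all but missing from TT642, at 0.42% of the Hs578 rate, while its paralogue SMARCA4 was present at 306 ± 5.84 CPM in TT642 and 278 ± 6.41 CPM in Hs578 (SD, n = 3 uninduced hairpin lines each). SMARCB1 was 2.56-fold lower in TT642 but not absent. SMARCD3, ARID1A, ARID2, ARID1B and SMARCC1 were higher in TT642. Of the 10 subunits, 5 were higher and 2 lower in TT642 hairpin lines at an adjusted p under 0.05 (edgeR quasi-likelihood test), in a comparison where 80.8% of all tested genes were called, 39.7% higher and 41% lower, so the number of calls is close to the background. The median log2 fold change was 0.29 over the 10 subunits and -0.01 over all genes. These are bulk libraries, in which fewer cells that express a gene and less RNA per cell cannot be told apart.

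SMARCA2, the alternative ATPase of the complex, had 5, 2 and 6 counts in TT642 hairpin lines 1, 2 and 3 with DOX and 6, 4 and 6 counts without it, and 3 counts with DOX and 4 without it in TT642 parental cells. Every Hs578 library held 758 to 1247 counts. The ranges were 0.0929 to 0.34 CPM in TT642 and 62.2 to 72.8 CPM in Hs578, and they did not come near each other in any state. In uninduced hairpin lines the SMARCA2 rate of TT642 was 238-fold lower than that of Hs578, with a 95% counting interval of 146 to 416-fold that covers counting error only. The edgeR log2 fold change was -7.86 (SE 0.19, adjusted p = 5.46e-14), the 456th lowest of the 14035 genes tested. In parental cells it was -8.54 (SE 0.34, adjusted p = 8.37e-11), with a TT642 rate of 0.26% of Hs578 and an interval of 0.0707% to 0.667%. On the log2(FPKM + 1) scale, which compresses values near 0, the hairpin difference was -4.32. How reads that match more than a single gene were counted, as can happen between SMARCA2 and SMARCA4, is not stated in these sources.

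SMARCA4, the ATPase that remains as RNA in both lines, had 304, 302 and 313 CPM in uninduced TT642 hairpin lines and 276, 286 and 274 CPM in uninduced Hs578 hairpin lines. The groups did not overlap, yet the log2 fold change of 0.14 (SE 0.072) missed the threshold (adjusted p = 0.090), with a 95% interval of -0.0032 to 0.28. It was called on the deposited FPKM (0.32 on the log2(FPKM + 1) scale, adjusted p = 0.0052 with limma).

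The RefSeq promoter windows of the ATPase genes and of SMARCB1 are shown because SMARCA2 and SMARCA4 are the paralogues of which a single RNA is nearly missing in TT642, and because SMARCB1 is the subunit tied to rhabdoid tumours. Windows ran from 250 bases before to 50 bases after an annotated start on build GRCh38.p14, and 7 of the 10 genes matched an entry, all but ARID2, SMARCC1 and SMARCC2. Capitals mark matches to GC box GGGCGG, AP-1 site TGACTCA or CCAAT, on either strand; TAATTA, a homeobox core, was searched too. These windows lie at chr9:2015097-2015396 on the plus strand for SMARCA2, chr19:10960780-10961079 on the plus strand for SMARCA4 and chr22:23786716-23787015 on the plus strand for SMARCB1.
SMARCA2: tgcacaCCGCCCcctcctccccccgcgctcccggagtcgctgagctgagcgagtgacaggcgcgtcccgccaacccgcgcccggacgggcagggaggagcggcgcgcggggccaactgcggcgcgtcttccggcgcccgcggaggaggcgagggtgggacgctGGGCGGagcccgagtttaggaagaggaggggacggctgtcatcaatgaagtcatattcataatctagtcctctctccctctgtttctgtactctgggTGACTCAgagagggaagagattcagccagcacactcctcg
SMARCA4: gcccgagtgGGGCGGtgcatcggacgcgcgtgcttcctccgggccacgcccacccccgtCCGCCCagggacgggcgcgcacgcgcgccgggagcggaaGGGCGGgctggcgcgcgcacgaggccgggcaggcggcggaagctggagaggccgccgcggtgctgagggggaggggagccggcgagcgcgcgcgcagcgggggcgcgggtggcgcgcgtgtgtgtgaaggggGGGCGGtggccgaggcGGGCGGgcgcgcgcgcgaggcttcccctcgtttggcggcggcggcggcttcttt
SMARCB1: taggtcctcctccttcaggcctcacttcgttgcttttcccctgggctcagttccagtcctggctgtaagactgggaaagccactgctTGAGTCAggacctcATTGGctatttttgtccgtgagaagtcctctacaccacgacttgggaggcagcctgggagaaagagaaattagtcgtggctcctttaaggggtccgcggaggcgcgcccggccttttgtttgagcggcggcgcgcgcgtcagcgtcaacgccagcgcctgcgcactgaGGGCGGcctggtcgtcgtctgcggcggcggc
The SMARCA2 window held 30 CpG dinucleotides, 2 GC boxes and 1 AP-1 match, and the SMARCA4 window held 55 CpG dinucleotides and 5 GC boxes. The SMARCB1 window held 25 CpG dinucleotides and 1 match each of the GC box, the AP-1 site and CCAAT. None of the 3 windows held TAATTA. The median over 35116 RefSeq windows of the same length was 14 CpG dinucleotides, and the GC box occurred in 45% of them, the AP-1 letters in 4.95%, TAATTA in 4.84% and CCAAT in 34.6%. These matches describe letters only, and the annotated SMARCA2 starts further along the gene lie in windows with 3 to 9 CpG dinucleotides. SMARCA4 likewise has a further annotated start, in a window with 5 CpG dinucleotides and no GC box.

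**Figure D1:**
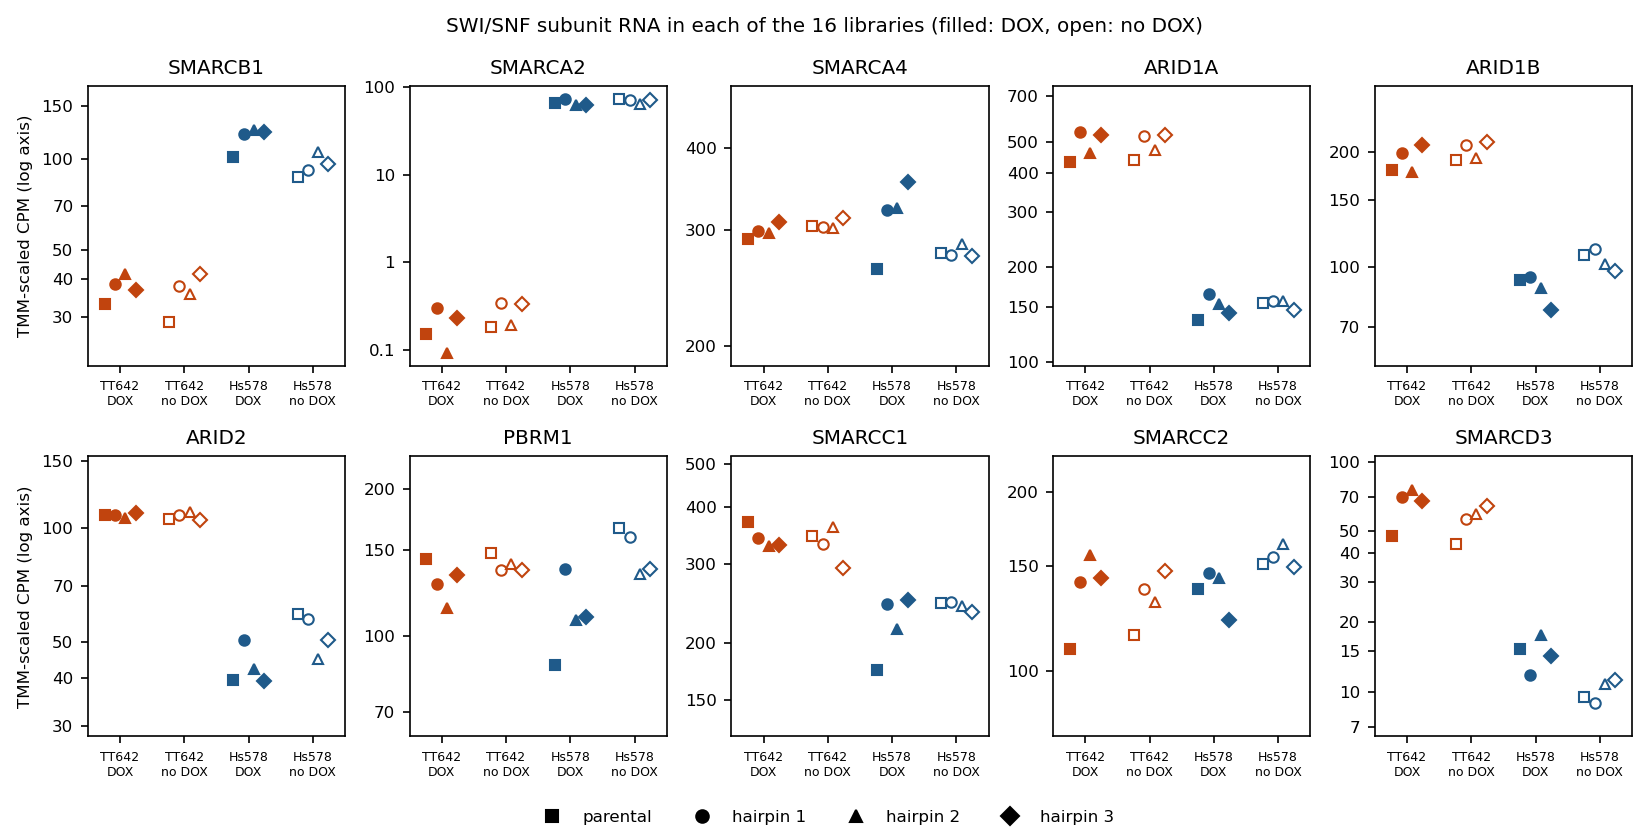
Level of each of the 10 subunits in each of the 16 libraries, in TMM-scaled CPM on log axes, with TT642 in orange, Hs578 in blue, filled points for DOX, open points for no DOX, and shapes for parental cells and hairpin lines 1 to 3. SMARCA2 lies at 0.0929 to 0.34 CPM in TT642 and at 62.2 to 72.8 CPM in Hs578, whereas SMARCA4 lies within 262 to 354 CPM in both lines.

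SMARCB1, the core subunit whose loss defines most rhabdoid tumours, had 38.6, 41.6 and 36.8 CPM with DOX and 37.8, 35.7 and 41.4 CPM without it in TT642 hairpin lines, and 33.0 CPM with DOX and 28.8 CPM without it in TT642 parental cells. Hs578 hairpin lines had 122, 125 and 123 CPM with DOX and 92.2, 106 and 96.2 CPM without it, and Hs578 parental cells had 102 CPM with DOX and 87.7 CPM without it. All 8 TT642 libraries lay below all 8 Hs578 libraries. In uninduced hairpin lines TT642 had 39% of the Hs578 rate (95% counting interval 37.1% to 41.1%), a log2 fold change of -1.36 (SE 0.085, adjusted p = 1.25e-09 with edgeR), and in parental cells the log2 fold change was -1.60 (SE 0.15, adjusted p = 3.14e-07). With 620 to 957 counts in each TT642 library, SMARCB1 RNA was present in the line labelled rhabdoid. The RNA does not show whether a protein is made or whether the transcript is intact.

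The ARID subunits, which direct the complex to its BAF or PBAF form, were mostly higher in TT642. ARID1A, the DNA-binding subunit of BAF, had 526, 474 and 526 CPM in uninduced TT642 hairpin lines and 156, 156 and 146 CPM in uninduced Hs578 hairpin lines. The log2 fold change was 1.74 (SE 0.090, adjusted p = 1.40e-10), and TT642 parental cells had 439.7 CPM against 154 CPM in Hs578 parental cells. Its paralogue ARID1B had 209, 193 and 212 CPM in TT642 and 112, 102 and 97.8 CPM in Hs578. ARID1B averaged 205 ± 10.3 CPM in TT642 and 104 ± 7.15 CPM in Hs578 (SD, n = 3 each), a log2 fold change of 0.98 (SE 0.093, adjusted p = 1.47e-07). ARID2, the PBAF counterpart, had 108, 110.1 and 105 CPM in TT642 and 57.4, 44.9 and 50.6 CPM in Hs578. It averaged 108 ± 2.63 CPM in TT642 and 50.9 ± 6.23 CPM in Hs578, a log2 fold change of 1.08 (SE 0.10, adjusted p = 1.28e-07). The lines did not overlap for any of these 3 genes, in a comparison where 80.8% of all genes were called. How many of all genes had no overlap was not counted, here or in the comparisons with DOX. PBRM1, the bromodomain subunit that ARID2 brings into PBAF, averaged 138 ± 2.43 CPM in TT642 and 143 ± 13.9 CPM in Hs578. Its log2 fold change of -0.06 had an interval of -0.26 to 0.14 (adjusted p = 0.61), and its sign was positive on FPKM (0.25 on the log2(FPKM + 1) scale).

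Among the scaffold subunits, SMARCC1 had 332, 361 and 294 CPM in uninduced TT642 hairpin lines and 247, 242 and 234 CPM in those of Hs578, with no overlap. It averaged 329 ± 34.0 CPM in TT642 and 241 ± 6.49 CPM in Hs578 (SD, n = 3 each), a log2 fold change of 0.45 (SE 0.089, adjusted p = 0.00029). SMARCC2 had 137, 130.4 and 147 CPM in TT642 and 156, 164 and 149 CPM in Hs578, again apart. It averaged 138 ± 8.51 CPM in TT642 and 156 ± 7.24 CPM in Hs578, a log2 fold change of -0.18 (adjusted p = 0.072 with edgeR). The edgeR test missed the threshold of 0.05 both with and without adjustment. The interval of -0.35 to -0.0074 leaves out 0, but these intervals are slightly narrower than the test. The threshold was passed under 3 of 25 alternatives. SMARCC2 was called lower in parental cells (-0.40, SE 0.15, adjusted p = 0.029), where each line has 1 library and the spread is taken from the hairpin groups. That call was lost on FPKM (adjusted p = 0.17), without hairpin number 1 (adjusted p = 0.051) and with a transcript length offset (-0.28, adjusted p = 0.0998).

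SMARCD3, the subunit known from heart and muscle development in mice, showed the largest excess in TT642 among the 10. It had 56.2, 59.3 and 64.4 CPM in uninduced TT642 hairpin lines and 8.95, 10.8 and 11.3 CPM in uninduced Hs578 hairpin lines. The log2 fold change was 2.54 (SE 0.13, adjusted p = 1.62e-10) in hairpin lines and 2.21 (SE 0.23, adjusted p = 1.05e-06) in parental cells. Of 5 skeletal muscle markers MYF5, MYOD1 and MYOG were at 0 in every library of both lines, while MYH3, an embryonic myosin, was higher in TT642 (2.63, adjusted p = 6.7e-05) and DES had a value of 1.28 (adjusted p = 0.24). The 5 summed to 1.51 to 6.23 CPM in TT642 and 0.344 to 1.15 CPM in Hs578, and their part in the SMARCD3 difference was not tested. In parental cells 8 of the 10 subunits were called, 5 higher and 3 lower in TT642, where 66.2% of all genes were called, 31.9% higher and 34.3% lower.

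**Figure D2:**
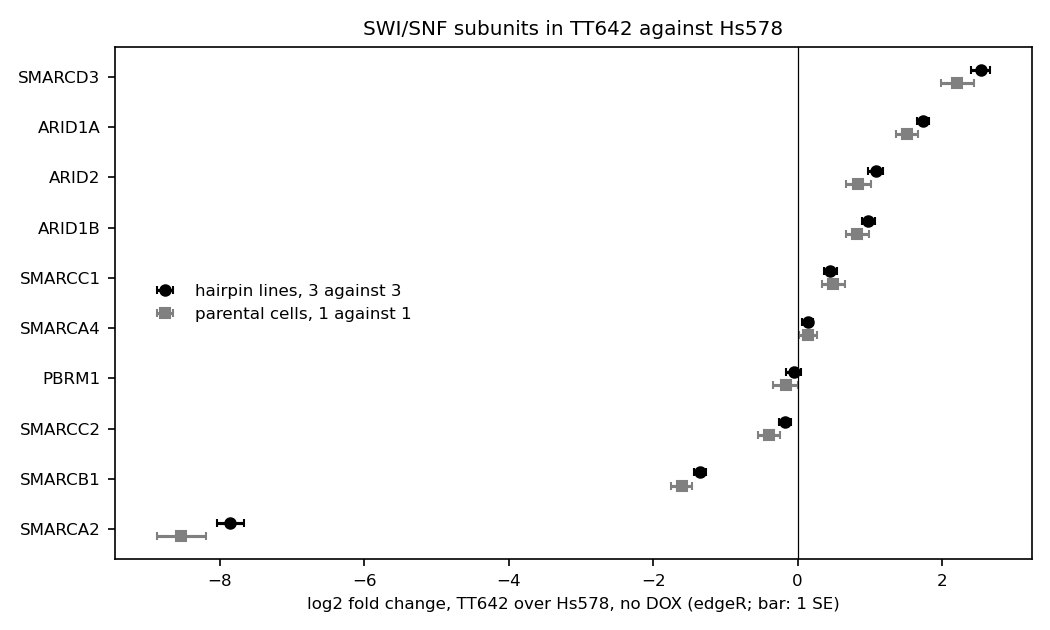
Log2 fold change of each subunit in TT642 over Hs578 without DOX, from edgeR, with bars of 1 SE; black circles are hairpin lines (3 libraries against 3) and grey squares parental cells (1 against 1). SMARCA2 stands at -7.86 and -8.54, SMARCB1 at -1.36 and -1.60, and SMARCD3 at 2.54 and 2.21, and the hairpin and parental values have the same sign for all 10 subunits.

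FPKM, which divides by transcript length, was used to set the levels of different subunits in order within a line. The order depends on the length used for each gene, which need not be the same in every library. In uninduced TT642, SMARCA2 ran from 0.025 to 0.37 FPKM on 0.186 to 0.34 CPM. In the 4 uninduced TT642 libraries ARID1A had the highest median FPKM (62.8), followed by SMARCA4 (57.4), and the ranges of these overlapped. SMARCC1 (45.6) lay apart below them. SMARCD3 (29.4), SMARCC2 (27.8), PBRM1 (25.5), ARID1B (24.8) and SMARCB1 (21.6) formed a run in which neighbours overlapped, and ARID2 (12.9) and SMARCA2 (0.078) each lay apart below it. In the 4 uninduced Hs578 libraries SMARCB1 led (median FPKM 50.3), with SMARCA4 (46.0) overlapping it. SMARCC1 (29.4), SMARCC2 (28.9), PBRM1 (22.9) and SMARCA2 (21.3) followed as an overlapping run, then ARID1A (17.8) and ARID1B (11.6) each apart, and last ARID2 (5.36) and SMARCD3 (4.59), which overlapped. SMARCB1 was thus first of the 10 in Hs578 and eighth in TT642, and ARID1A was first in TT642 and seventh in Hs578.

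Ratios of subunits within a library do not depend on scaling between libraries. SMARCA2 over SMARCA4 had a log2 FPKM ratio of -9.55 ± 1.79 in uninduced TT642 and -1.09 ± 0.24 in uninduced Hs578 (SD, n = 4 each, parental cells included). SMARCA2 made up 0.0458% to 0.642% of the summed FPKM of both ATPases in uninduced TT642 and 28.8% to 37.3% in uninduced Hs578. The TT642 values rest on 4 to 6 SMARCA2 counts per library, and the FPKM of SMARCA2 varied between them by more than its counts did. ARID1B over ARID1A was -1.31 ± 0.056 in TT642 and -0.61 ± 0.056 in Hs578. SMARCC2 over SMARCC1 was -0.71 ± 0.26 in TT642 and -0.04 ± 0.058 in Hs578, and SMARCB1 over SMARCA4 was -1.47 ± 0.15 in TT642 and 0.14 ± 0.13 in Hs578. No TT642 value overlapped an Hs578 value in any of the 4 ratios, and each gave a two-sided exact permutation p of 0.0286 (adjusted over the 4 ratios 0.0286), the smallest that 4 libraries against 4 allow. Each ratio holds at least 1 gene already called between the lines, in a comparison where 80.8% of all genes were called. The ratios are therefore not separate support for a line difference. How often ratios of other gene pairs separate the lines was not tested.

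**Figure D3:**
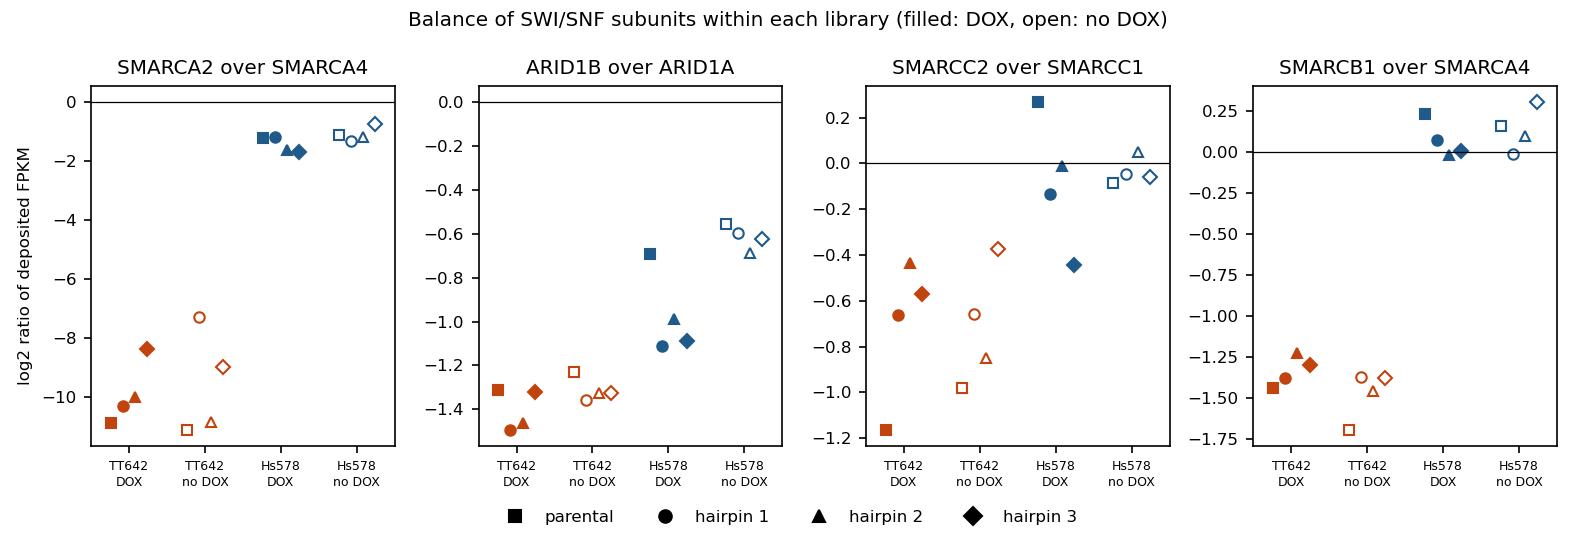
Log2 ratio of deposited FPKM for 4 pairs of subunits in each library, with TT642 in orange, Hs578 in blue, filled points for DOX and open points for no DOX. All 4 ratios lie lower in uninduced TT642 than in uninduced Hs578, and the 3 Hs578 hairpin lines with DOX lie at -1.11 to -0.99 for ARID1B over ARID1A, against -0.69 to -0.59 in the same lines without DOX.

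The second comparison asked how the subunits respond when the PRRX1 hairpin is induced. In Hs578 hairpin lines SMARCB1, SMARCA4 and SMARCD3 rose with DOX and ARID1B fell, each by less than 1.5-fold. Of the 10 subunits 4 were called, 3 higher and 1 lower, where 29.3% of all genes were called, 15.2% higher and 14.1% lower, so the count is near the background. The median log2 fold change of the 10 was -0.03. DESeq2 called 5 of the 10. The share of all genes that DESeq2 called is not reported here, so that count has no background to be read against.

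SMARCB1 averaged 123 ± 1.82 CPM with DOX and 98.1 ± 6.92 CPM without it (SD, n = 3 each), a log2 fold change of 0.33 (SE 0.082, adjusted p = 0.0089 with edgeR), and all 3 pairs were higher with DOX. SMARCA4 had 322, 324 and 354 CPM with DOX in hairpin lines 1, 2 and 3 and 276, 286 and 274 CPM without it. The groups did not overlap, and the log2 fold change was 0.26 (SE 0.072, adjusted p = 0.015). SMARCD3 had 11.8, 17.6 and 14.3 CPM with DOX and 8.95, 10.8 and 11.3 CPM without it, again with no overlap, a log2 fold change of 0.49 (SE 0.14, adjusted p = 0.017). ARID1B had 94.6, 88.3 and 77.5 CPM with DOX and 112, 102 and 97.8 CPM without it, with no overlap. Its log2 fold change was -0.26 (SE 0.094, adjusted p = 0.049 with edgeR). The share of all genes without overlap between DOX states was not counted.

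PBRM1 averaged 118 ± 16.3 CPM with DOX and 143 ± 13.9 CPM without it in Hs578 hairpin lines. Its log2 fold change of -0.28 (SE 0.10) just missed the threshold (adjusted p = 0.054), was called with the derived line as a block (-0.28, adjusted p = 0.013) and with DESeq2 (-0.31, adjusted p = 0.028), and was -0.52 on the log2(FPKM + 1) scale (adjusted p = 0.020 with limma). ARID2 (-0.21, adjusted p = 0.14) and SMARCC2 (-0.19, adjusted p = 0.11) had negative values in all 3 hairpin pairs without passing, and SMARCC2 passed on log2(FPKM + 1) (-0.30, adjusted p = 0.047 with limma). ARID1A (0.01), SMARCC1 (-0.03) and SMARCA2 (-0.04) had values near 0, with intervals of -0.16 to 0.18, -0.20 to 0.15 and -0.25 to 0.17. On FPKM the balance of ARID1B over ARID1A was lower with DOX by 0.52, 0.30 and 0.46 on the log2 scale in hairpin lines 1, 2 and 3 of Hs578 and by 0.14 in its parental cells. On CPM the shift was smaller in each pair. Log2 CPM changes in lines 1, 2 and 3 were -0.24, -0.21 and -0.34 for ARID1B and 0.08, -0.03 and -0.02 for ARID1A. In parental cells they were -0.22 and -0.17.

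**Figure D4:**
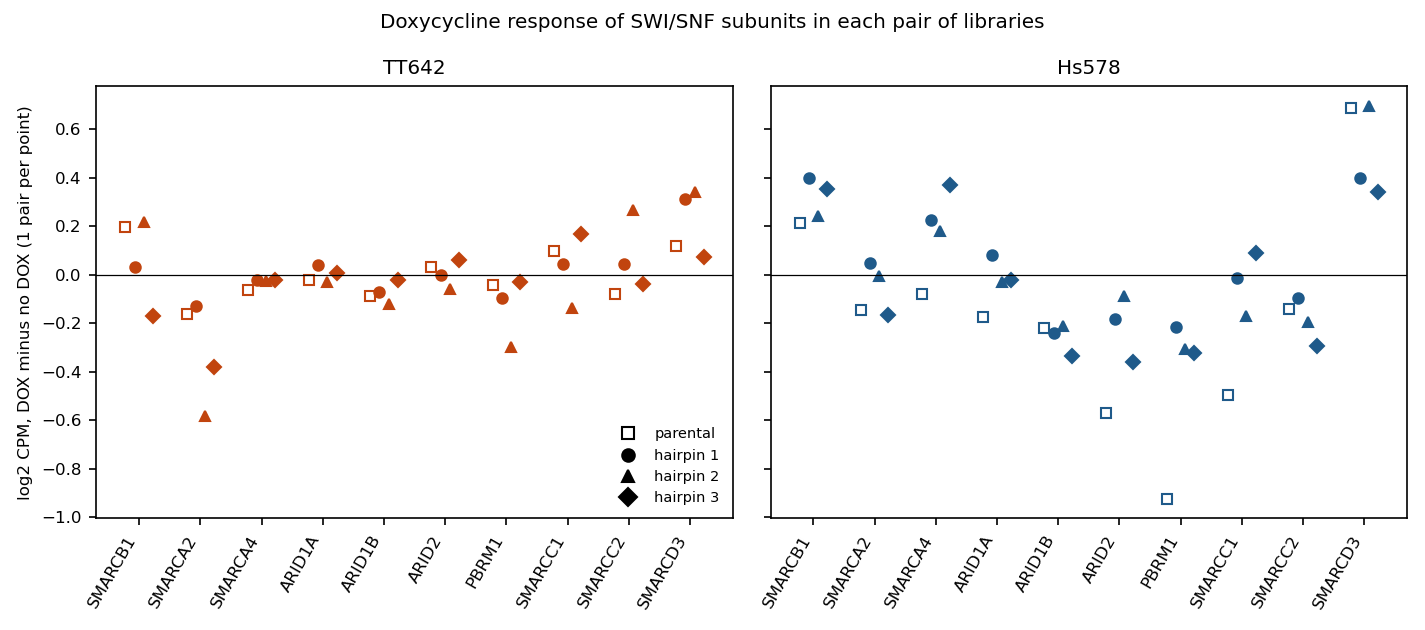
Log2 CPM with DOX minus without DOX for each subunit in each pair of libraries, TT642 left and Hs578 right; open squares are parental pairs and filled shapes hairpin lines 1 to 3. In Hs578 all 4 pairs are positive for SMARCB1 and SMARCD3 and negative for ARID1B, ARID2, PBRM1 and SMARCC2, and the parental pair is lowest for PBRM1 (-0.92), ARID2 (-0.57) and SMARCC1 (-0.50).

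These calls rest on few libraries. SMARCA4 was not called without the Hs578 hairpin 3 library with DOX (adjusted p = 0.058) or the uninduced hairpin 1 or 3 library (0.052 and 0.061), and SMARCD3 was not called without the hairpin 2 library with DOX (0.084) or the uninduced hairpin 1 library (0.085). SMARCB1 stayed called when any single library was left out but not without hairpin number 1 (0.087) or 3 (0.11) in all its libraries, and not on log2(FPKM + 1) (0.20, adjusted p = 0.085 with limma) or log2(FPKM + 0.1) (0.21, adjusted p = 0.094), and the ARID1B call was lost under 16 of 24 alternatives. The number of subunits called ran from 0 (without hairpin number 3) to 6 (without the hairpin 1 library with DOX).

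The DOX response of Hs578 genes varied with their transcript length. A length implied by the deposited files (CPM over FPKM) was 1.83 kb for SMARCB1, 2.10 kb for SMARCD3, 2.97 kb for SMARCA2, 5.18 kb for SMARCC2, 5.58 kb for SMARCA4, 6.27 kb for PBRM1, 7.92 kb for SMARCC1, 8.32 kb for ARID1A, 8.67 kb for ARID1B and 9.02 kb for ARID2. Over all genes of Hs578 hairpin lines the median log2 fold change with DOX was 0.37 under 1 kb, 0.17 from 1 to 2 kb, -0.18 from 4 to 6 kb, -0.24 from 6 to 8 kb and -0.35 from 8 kb upward. Spearman's rho of fold change on length was -0.43 across 14033 genes in Hs578 and -0.05 in TT642, a description across genes that share libraries. The Hs578 parental pair also showed it, with medians of 0.13 for genes under 2 kb and -0.23 for genes of 6 kb or more, against 0.02 and -0.02 in the TT642 parental pair. A gradient of the same direction was present in Hs578 without DOX, between uninduced hairpin lines and the 1 uninduced parental library. Medians there ran from 0.08 under 1 kb to -0.13 from 8 kb upward, with a rho of -0.30, against 0.0018 in TT642. The gradient is thus not particular to DOX. The mitochondrial share of counts was 3.18% to 5.44% with DOX and 2.16% to 2.79% without it in Hs578 hairpin lines. In Hs578 parental cells, which carry no hairpin, it was 4.16% with DOX and 2.73% without it.

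With a length offset in the fit, an alternative added after the data had been seen, the 10 subunits took other values. SMARCA4 was still called (0.44, adjusted p = 0.0020), as was SMARCD3 (0.40, adjusted p = 0.043), and ARID1A became called (0.27, adjusted p = 0.032). SMARCB1 (0.21, adjusted p = 0.067), ARID1B (0.01, adjusted p = 0.96) and PBRM1 (-0.08, adjusted p = 0.53) were not. In the fit without the offset SMARCA4 (0.26) stood in a length class with a median of -0.18, SMARCB1 (0.33) in a class with a median of 0.17, PBRM1 (-0.28) in a class with a median of -0.24 and ARID1B (-0.26) in a class with a median of -0.35. The part of the mitochondrial share in these values was not tested.

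**Figure D5:**
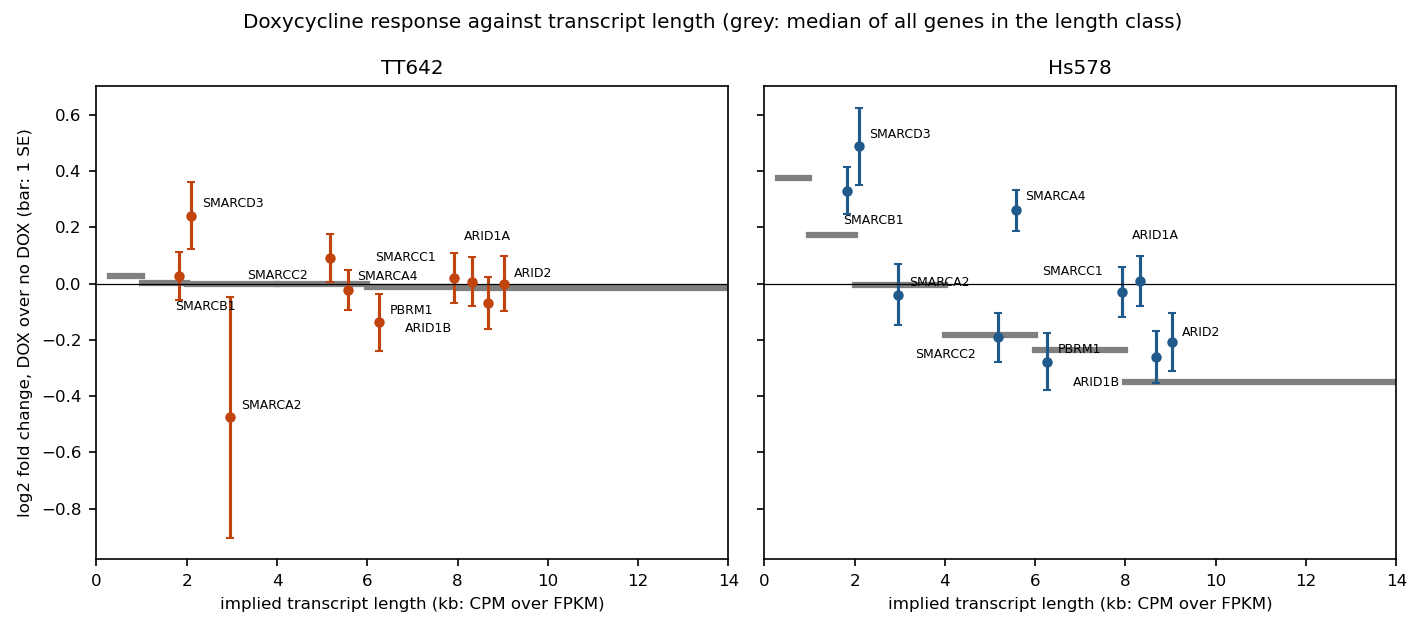
Log2 fold change with DOX in hairpin lines against the transcript length implied by CPM over FPKM, TT642 left and Hs578 right; points are the 10 subunits with bars of 1 SE, and grey bars are the medians of all genes in each length class (the class from 8 kb upward is drawn to the edge). In Hs578 the medians step down from 0.37 to -0.35 and SMARCA4 lies above the median of its class, while in TT642 they stay near 0.

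In TT642 hairpin lines no subunit was called with DOX by edgeR or DESeq2, none had an unadjusted p under 0.05, and 0.0285% of all genes (4 genes) were called, although 1098 genes had an unadjusted p under 0.05. SMARCD3 had the largest positive value, with 69.9, 75.2 and 67.7 CPM with DOX and 56.2, 59.3 and 64.4 CPM without it. The groups did not overlap, but the log2 fold change of 0.24 (SE 0.12) did not pass (adjusted p = 0.65). SMARCA4 had 299, 297 and 309 CPM with DOX and 304, 302 and 313 CPM without it, a log2 fold change of -0.02 with an interval of -0.16 to 0.12. SMARCB1 averaged 39.0 ± 2.41 CPM with DOX and 38.3 ± 2.89 CPM without it (0.03, interval -0.14 to 0.19). PBRM1 had 128, 114 and 134 CPM with DOX and 136, 141 and 137 CPM without it, with no overlap and a log2 fold change of -0.14 (SE 0.10, adjusted p = 0.83). SMARCA2 stayed at 2 to 6 counts per library with DOX and at 4 to 6 without it, and a change was not detectable at this depth (-0.48, SE 0.43, adjusted p = 0.89).

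The difference between the DOX effects of the lines was tested directly. For SMARCA4 it was -0.28 (SE 0.10, TT642 minus Hs578), with all 3 TT642 pairs slightly negative (-0.03 to -0.02) and all 3 Hs578 pairs positive (0.18 to 0.37). It did not pass with edgeR (adjusted p = 0.10), passed with DESeq2 (-0.26, adjusted p = 0.027) and with the length offset (-0.46, adjusted p = 0.046). For SMARCB1 the difference was -0.30 (SE 0.12, adjusted p = 0.13) and for SMARCC2 it was 0.28 (SE 0.12, adjusted p = 0.17). edgeR called 0 of the 10 subunits where 5.24% of all genes were called, 2.48% higher and 2.76% lower. An unadjusted edgeR p under 0.05 was found for 3 subunits and for 24.6% of all genes. DESeq2 called 1 subunit and 1404 genes.

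Parental cells, which carry no hairpin, show the response to DOX alone with 1 pair per line. Averaged over both lines, edgeR called no subunit and 0.0143% of all genes (2 genes). An unadjusted edgeR p under 0.05 was found for 3 subunits and for 15.2% of all genes, and DESeq2 called 1 subunit. That gene was PBRM1, with a log2 fold change of -0.48 (SE 0.13, adjusted p = 0.13 with edgeR, 0.033 with DESeq2 and 0.040 with the replicate block). It came from Hs578, where PBRM1 had 87.5 CPM with DOX and 166 CPM without it (-0.92), against 144 CPM with DOX and 148 CPM without it in TT642 (-0.04). SMARCD3 had 15.3 CPM with DOX and 9.47 CPM without it in Hs578 parental cells and 47.5 and 43.8 CPM in TT642 parental cells, a mean log2 fold change of 0.41 (adjusted p = 0.25). In the Hs578 parental pair SMARCB1 (0.21), SMARCD3 (0.69), ARID1B (-0.22) and PBRM1 had the sign of the hairpin lines, whereas SMARCA4 did not, at 262 CPM with DOX and 277 CPM without it (-0.08). The hairpin effect net of the parental one was not tested for these genes.

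Hairpin lines and parental cells were also compared without DOX. Each line has 1 parental library there, and carrying a hairpin cannot be told apart from being a derived line. Against their parental cells, edgeR called 0 of the 10 subunits in TT642, where 0.919% of all genes were called (0.157% higher and 0.762% lower), and 0 in Hs578, where 0% were. In TT642, 3 subunits had an unadjusted edgeR p under 0.05, where 12% of all genes had one. They were SMARCB1 (0.41, adjusted p = 0.18), SMARCD3 (0.45, adjusted p = 0.30) and SMARCC2 (0.27, adjusted p = 0.41), each higher in hairpin lines. In Hs578 no subunit had an unadjusted p under 0.05. DESeq2 called 0 of the 10 in either line.

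Other parts of the complex and related machinery were read from lists chosen with earlier results known. Their counts stand against 80.8% of all genes called between the lines (39.7% higher and 41% lower in TT642) and 29.3% called with DOX in Hs578 (15.2% higher and 14.1% lower). Of 20 further SWI/SNF subunits 18 were in the files and 17 were tested, and 7 were higher and 3 lower in TT642 than in Hs578 hairpin lines, a smaller share than over all genes. BCL7A (2.49) and BCL7C (1.66), accessory subunits, were higher, and DPF1 (-1.77), a subunit of the neuronal form, was lower. With DOX in Hs578 hairpin lines BCL7C (0.58) and BRD9 (0.43), the bromodomain subunit of the non-canonical form, rose and none fell, again a smaller share than over all genes. Of 13 genes of other remodellers, 8 were higher and 3 lower in TT642, close to the share over all genes, with CHD3 (-2.22), an ATPase of the NuRD complex, SMARCA1 (2.84), an ISWI ATPase, and CHD2 (0.98) at the smallest p. With DOX in Hs578 none of them rose and 5 fell, among them INO80 (-0.50), EP400 (-0.39) and CHD1 (-0.35), which are ATPases of their own complexes. The length pattern given above is present in this comparison. Of 11 genes of Polycomb repressive complex 2, which opposes SWI/SNF, 3 were higher and 5 lower in TT642, no larger a share than over all genes, with RBBP7 (-2.28), AEBP2 (1.20) and PHF19 (-1.31) at the smallest p. With DOX in Hs578 AEBP2 (-0.39), EZH1 (-0.37) and SUZ12 (-0.33) fell, and 1 gene of this list rose, PHF1 (0.36), named after its value was seen. These 4 of 11 lie near the share over all genes. None of these lists had a called gene with DOX in TT642.

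After the mean of each line was removed, the genes whose log2 CPM followed SMARCB1 most closely over the 16 libraries were LRCH4 (Pearson's r 0.96), PLP2 (0.945) and BAD (0.944), among 10350 candidates. For SMARCA4 they were TIMM8B (0.954), SNRPD3 (0.952) and HSD17B10 (0.947), and for SMARCA2 they included SAP30L (0.852) and DDX11 (0.838), where the TT642 values of SMARCA2 rest on 2 to 6 counts. SMARCB1 and SMARCA4 correlated at 0.209 over the 8 TT642 libraries and at 0.857 over the 8 Hs578 libraries. ARID2 and PBRM1 correlated at 0.143 in TT642 and 0.929 in Hs578, and SMARCC2 and SMARCD3 at 0.931 in TT642 and -0.641 in Hs578. PBRM1 and SMARCD3 were negatively correlated in both, at -0.856 in TT642 and -0.897 in Hs578. The pairs were picked after their values were seen. These values describe libraries that share a DOX state, a depth and, in Hs578, the length pattern. They also carry the difference between parental cells and hairpin lines, which was not removed. TT642 parental cells had 43.8 and 47.5 CPM of SMARCD3, against 56.2 to 75.2 CPM in TT642 hairpin lines. For SMARCC2 they had 109 and 115 CPM against 130 to 157 CPM.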

How the data were processed

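The 16 RNA sequencing libraries were put into 8 groups by the titles in the labels. Per the labels' protocols, stranded polyadenylated libraries were made from 500 ng of total RNA. The authors deposited raw read counts per gene symbol and FPKM values, which divide by transcript length and depth (20111 genes). Per the submitters' processing notes the build was hg19. The sources used here do not give the aligner, the counter, the annotation or the use of strand, so reads shared by paralogues such as SMARCA2 and SMARCA4 could have been split or dropped.

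Differential expression rested on the counts and edgeR 4.0.16 under R 4.3.3 (quasi-likelihood test, TMM scaling, default expression filter, robust moderation), with 1 mean for each of the 8 groups and 8 residual degrees of freedom. The spread of a single parental library was taken from the hairpin groups. All tests were two-sided, with Benjamini-Hochberg adjustment over 14035 genes and calls under 0.05. The 95% intervals of log2 fold changes were taken from the SE on a normal scale and are slightly narrower than the test. Log2 ratios of single pairs used a prior count of 2. FPKM ratios within a library were compared by exact permutation. Rates over counts carry 95% exact intervals for counting error only. Alternatives were relative log expression scaling, no filter, no robust moderation, DESeq2 1.42.0, limma 3.58.1 on log2(FPKM + 1) and log2(FPKM + 0.1), libraries left out, a replicate block, only the compared libraries and, added later, a length offset. No libraries agreed within sampling noise. The scripts were tested on simulated data.

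Libraries with the same hairpin number were taken as the same derived line, from the titles. Their deviations from group means correlated at 0.44, 0.415 and 0.421 in TT642 and at 0.128, -0.0277 and 0.00119 in Hs578, so the pairing shows in the values of TT642 and hardly in those of Hs578.

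The 10 members and all lists were chosen with earlier results of these data known. Named genes were the members, PRRX1, up to 3 called genes with the smallest p per list and comparison, and the 3 genes most correlated with SMARCB1, SMARCA2 and SMARCA4, of which 1 is not reported here. Marker lists of luminal breast, skeletal muscle, neural, blood and endothelial genes were summed as well. In TT642 and Hs578 they reached 117 to 178 and 332 to 528 CPM (luminal), 1.51 to 6.23 and 0.344 to 1.15 CPM (muscle), 5.64 to 12.1 and 0.459 to 1.32 CPM (neural), 12.2 to 17.2 and 43.7 to 105 CPM (blood), and 0 to 0.325 and 0.631 to 1.48 CPM (endothelial).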

Additional observations from a re-analysis of the deposited data

Results flagged for a closer look

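The DOX effect on SMARCA4, the ATPase present in both lines, pointed opposite ways in them. It was negative in all 3 TT642 hairpin pairs and positive in all 3 Hs578 hairpin pairs, with a difference of -0.28 on the log2 scale (TT642 minus Hs578, SE 0.10). The test of the difference itself gave an adjusted p of 0.10 with edgeR, 0.027 with DESeq2 and 0.046 with the length offset. The TT642 hairpin values are small, at -0.03 to -0.02. The parental pairs, which carry no hairpin, stood at -0.06 in TT642 and -0.08 in Hs578. In Hs578 the DOX response of genes varied with their transcript length, and the mitochondrial share was higher with DOX. The part of either in this difference was not tested beyond the length offset.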

How the results depend on the processing

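The line differences of SMARCB1, SMARCA2, ARID1A, ARID1B, ARID2, SMARCC1 and SMARCD3 kept their sign and stayed called under every alternative run, in hairpin lines and in parental cells. Counts of 2 to 6 limit SMARCA2 in TT642. PBRM1 changed sign between lines on log2(FPKM + 1) and log2(FPKM + 0.1) (0.25 and 0.26), with -0.12 to 0.034 when libraries were left out. With DOX in Hs578, ARID1A changed sign with relative log expression scaling (-0.0227) and DESeq2 (-0.0228), and ARID1B (0.0097), ARID2 (0.072) and SMARCC1 (0.22) did with the length offset. With libraries left out, values there were -0.044 to 0.057 for ARID1A, -0.10 to 0.035 for SMARCC1 and -0.12 to 0.018 for SMARCA2. With DOX in TT642, ARID1A changed sign with relative log expression scaling (-0.0032) and DESeq2 (-0.0032), and ARID2 with the length offset (0.0082). With libraries left out, values were -0.042 to 0.071 for ARID1A, -0.069 to 0.12 for SMARCB1, -0.033 to 0.032 for ARID2 and -0.055 to 0.11 for SMARCC1. The causes were not tested.

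Counts of called genes moved more. In Hs578 with DOX, 4118 genes were called, 2645 with the length offset and 840 to 4768 with libraries left out, and 0 to 6 of the 10 subunits. In TT642 with DOX 4 genes were called, 8 with no filter, 74 with DESeq2, 8 on log2(FPKM + 1), 2 in a fit of only the compared libraries and 0 to 7 with libraries left out. For the difference between lines 735 genes were called, 1404 and 1 subunit with DESeq2, 1107 on log2(FPKM + 1), 238 and 1 subunit with the length offset, and 2 to 2082 with libraries left out. In parental cells with DOX 2 genes were called, 1 with relative log expression scaling, without robust moderation, on log2(FPKM + 0.1) and with the length offset, 6 on log2(FPKM + 1), 24 with no filter, 270 and 1 subunit with DESeq2, and 0 to 269 and 0 to 1 subunit with libraries left out. Of TT642 hairpin lines against parental cells 129 genes were called, 213 with DESeq2, 77 on log2(FPKM + 0.1) and 74 to 191 with libraries left out. In Hs578 no gene was called, and 1 was on log2(FPKM + 1), on log2(FPKM + 0.1) and in a fit of only the compared libraries.

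The replicate block called 46 genes with DOX in TT642, 1763 for the difference between lines, and 163 genes and 1 subunit (PBRM1) in parental cells. It turned the sign of ARID2 with DOX in TT642 (0.000115). Beside PBRM1 with DOX in Hs578 (-0.28, adjusted p = 0.013) and in parental cells it changed no call of a subunit. No block could be fitted for hairpin lines against parental cells or for parental cells of TT642 against Hs578, and a fit of only the compared libraries was not run for the parental comparisons, which leave no residual degrees of freedom.

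The FPKM ratios kept their direction in hairpin libraries alone (SMARCA2 over SMARCA4 -7.95, ARID1B over ARID1A -0.70, SMARCC2 over SMARCC1 -0.61, SMARCB1 over SMARCA4 -1.53), where 3 against 3 cannot give an exact permutation p under 0.10. With libraries left out they ran from -9.22 to -7.94, -0.72 to -0.67, -0.79 to -0.59 and -1.66 to -1.54. The adjusted exact permutation p of each ratio was then 0.0571, whichever library was left out.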
